A study of Drosophila melanogaster with 8 samples.

Results

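The genes examined here encode enzymes that break down protein and carbohydrate in the *Drosophila* midgut. They were chosen by name from the Ensembl annotation and comprise 43 of its 13968 protein-coding genes. The choice used no measured value, though it was made with earlier results of these data known. It took 16 Jonah proteases (names starting with Jon), 11 trypsins (ending with Try), 8 maltases (starting with Mal-A), 6 alpha-mannosidases (starting with LMan) and 2 amylases (*Amy-p* and *Amy-d*). The window of a gene was its body plus 1 kb upstream of its annotated start, and windows up to 10 kb apart were joined into a locus. This gave 12 loci, of which *Jon44E* and *Jon74E* hold a single gene each, and 22 of the 43 genes lie on chromosome arm 2R.

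Digestion in the fly gut relies on enzymes that mature enterocytes secrete into the lumen. Trypsins and the Jonah enzymes are serine proteases that cut dietary protein, amylases cut starch into short sugars and maltases split those sugars into glucose. The LMan genes encode lysosomal-type alpha-mannosidases, which trim mannose from glycoproteins and are not classical secreted digestive enzymes. Intestinal stem cells and their progenitor daughters carry the same genes in their chromatin before they become enterocytes, and most of these genes stand in tandem arrays of similar copies.

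NanoDam was used to map where Chronophage (Cph), a C2H2 zinc-finger transcription factor, contacts chromatin in progenitor cells. In this assay the bacterial Dam methylase, joined to a nanobody that recognises GFP and YFP, is drawn to a tagged protein and methylates GATC sequences close to it. The Cph NanoDam flies carried CphYFP, the endogenous protein tagged with YFP, together with UAS-NanoDam under the temperature-sensitive esgTS driver, which is active in progenitors. The control flies carried UAS-NanoDam and esgTS and no tagged Cph, so that their GATC methylation came from untethered NanoDam. All flies were raised at 18 °C and moved at an age of 3 to 5 days to 29 °C for 17 h, and DNA was taken from 30 pooled midguts per library. There were 4 biological replicates per genotype, and replicates 3 and 4 of both genotypes carry the label batch 2. Since whole midguts were dissected, the restriction to progenitors rests on the driver.

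The deposited lists give peaks of reads from methylated fragments, on release 6 of the genome (BDGP6). Each of the 8 libraries has a list made without any control, and each Cph library has a second list made with the equally numbered control as background, whose peaks are named Cph-over-control peaks. Libraries held 55557571 to 125721243 reads, fewer in the Cph library than in its control in every pair, and depth at single sites is not recorded. Between 9.87% and 12.6% of the genome lay in peaks of the Cph libraries, and between 11.3% and 12.9% in those of the control. As for marker genes, 4 of 4 genes of progenitors, 2 of 2 of enterocytes, 1 of 4 of enteroendocrine cells and 1 of 2 of visceral muscle had a Cph-over-control peak in all 4 replicates, against 41.8% of all protein-coding genes. These are counts of peaks, and no RNA was measured in these libraries.

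Most digestive enzyme genes held a peak in every library, with or without tagged Cph. A peak overlapped the window in all 8 lists called without a control for 32 of the 43 genes (74.4%), against 67.9% of all protein-coding genes. No peak in any of these lists was found for 6 genes (14.0%, against 13.0% of all). A Cph-over-control peak in all 4 replicates was present at 21 genes (48.8%, against 41.8% of all), and 7 genes (16.3%, against 20.4% of all) had none in any replicate. The remaining 15 genes had Cph-over-control peaks in 1 to 3 replicates. These counts lay within a few points of those over all genes, and no test was made of the difference. Neighbouring genes in an array often share a peak, so the genes are not independent of each other.

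The enzyme genes stood further above the genome when the same length was taken for each gene, or when only stronger peaks were counted. The median window of the 43 genes was 1981 bp, against 3164.5 bp for all protein-coding genes. Within 1 kb on either side of the annotated start, a peak in all 8 lists was found for 31 genes (72.1%, against 51.0% of all). In the same interval, a Cph-over-control peak in all 4 replicates was found for 20 genes (46.5%, against 23.0% of all). With only Cph-over-control peaks of at least 2-fold enrichment, 13 genes (30.2%, against 12.9% of all) had one in all 4 replicates within the window. The 13 genes were *LManI*, *Jon99Ciii*, 6 maltases and 5 trypsins. With the gene body alone, a Cph-over-control peak in all 4 replicates was found for 16 of the 43 genes, against 35.2% of all. With the gene body plus 3 kb upstream, it was found for 26 of the 43, against 54.5% of all.

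Between genotypes, the bases of the 43 windows lay slightly less often in peaks of the Cph libraries than in peaks of the control libraries. The share of the 99.6 kb in peaks was 25.4%, 22.5%, 28.6% and 27.2% in Cph replicates 1 to 4 and 27.0%, 28.7%, 30.1% and 29.1% in control replicates 1 to 4. The group means were 25.9% ± 2.63 and 28.7% ± 1.31 (SD, n = 4 each), and the Cph library was the lower one in each pair, with differences of -1.55 to -6.27 points. Over the windows of all protein-coding genes the means were 13.5% ± 1.33 and 14.9% ± 0.774 (SD, n = 4 each), also lower in the Cph libraries. The Cph-over-control peaks covered 17.1% ± 2.91 of the enzyme windows and 7.74% ± 0.517 of all gene windows (SD, n = 4). All these shares are over merged bases, so that longer genes weigh more. As a mean of single genes over the 8 lists made without a control, the share was 30.4% for the enzyme genes and 19.8% for all genes. The map of shares by gene and library gives the values of all 43 genes.

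**Figure D1:**
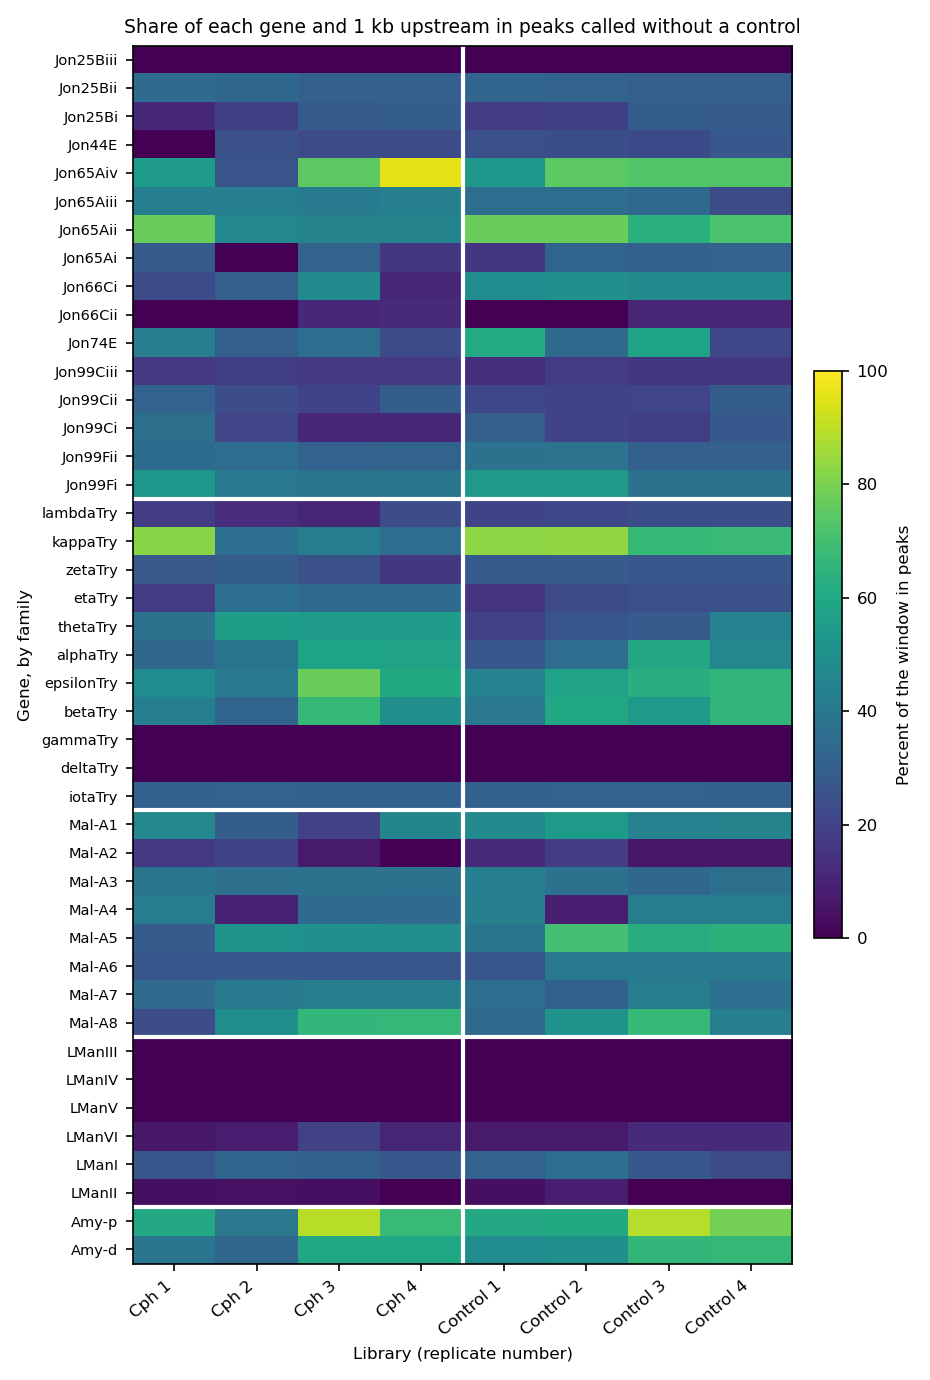
Share of each gene and its 1 kb upstream that lies in peaks called without a control, in percent (colour), for the 43 digestive enzyme genes (vertical axis, by family) in the 4 Cph and 4 control libraries (horizontal axis). The 6 genes without a peak are dark in every column, and *Amy-p*, *Jon65Aiv*, *Jon65Aii* and *kappaTry* are the brightest.

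The maltase locus, at chr2R:8449664-8473961, lay above its flanks in every library. Its 8 genes encode alpha-glucosidases that split maltose and related sugars. Without a control, 30.9%, 30.7%, 32.5% and 34.9% of the locus lay in peaks of Cph replicates 1 to 4, and 33.7%, 36.7%, 38.0% and 35.7% in peaks of control replicates 1 to 4. The 20 kb on each side averaged 11.2%. The groups overlapped, with control replicate 1 inside the range of the Cph libraries. A Cph-over-control peak in all 4 replicates was present at 7 of the 8 maltase genes, and *Mal-A2* had one in replicates 1 to 3. Cph-over-control peaks covered 23.2%, 27.9%, 35.3% and 35.99% of the bases of the maltase windows in replicates 1 to 4, the highest mean among the 5 families.

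Among the single maltase genes, *Mal-A5* and *Mal-A8* had the widest coverage. *Mal-A5* had 29.0%, 51.2%, 50.3% and 49.1% of its window in peaks of Cph replicates 1 to 4, and 38.7%, 70.3%, 62.4% and 64.1% in the control replicates. *Mal-A8* had 23.8%, 49.3%, 66.4% and 66.8% in the Cph replicates, and 34.1%, 50.9%, 67.1% and 42.8% in the control replicates. Replicate 1 of both genotypes was the lowest at both genes, and the groups overlapped. At *Mal-A1*, the first gene of the array, the shares were 46.2%, 29.3%, 19.6% and 45.5% in the Cph replicates and 47.3%, 54.7%, 44.4% and 44.7% in the control replicates. The Cph libraries thus ranged more widely at *Mal-A1*, and 2 of them lay inside the control range.

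Bases held by Cph-over-control peaks of all 4 replicates over at least 200 bp, here called shared regions, numbered 7289 in the genome, and 16 of them overlapped the enzyme windows. They reached 19 of the 43 genes (44.2%, against 31.1% of all protein-coding genes). Of the 16 regions, 8 lay in the maltase locus. The strongest of the 8 by mean fold enrichment was a region of 209 bp at chr2R:8457883-8458091, over the 5' UTR and upstream sequence of *Mal-A3* and upstream of the divergent *Mal-A4*. Its fold enrichment over the control was 2.31, 3.40, 3.39 and 4.30 in replicates 1 to 4. The next was a region of 920 bp at chr2R:8464876-8465795, which runs from the coding end of *Mal-A5* across the start of *Mal-A6*, with 2.07, 2.52, 3.46 and 3.00. Another, of 459 bp at chr2R:8471639-8472097, spans both starts of the divergent pair *Mal-A7* and *Mal-A8*, with 2.32, 1.93, 2.03 and 2.06. Each of these regions also overlapped a peak in all 4 control lists called without a control.

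**Figure D2:**
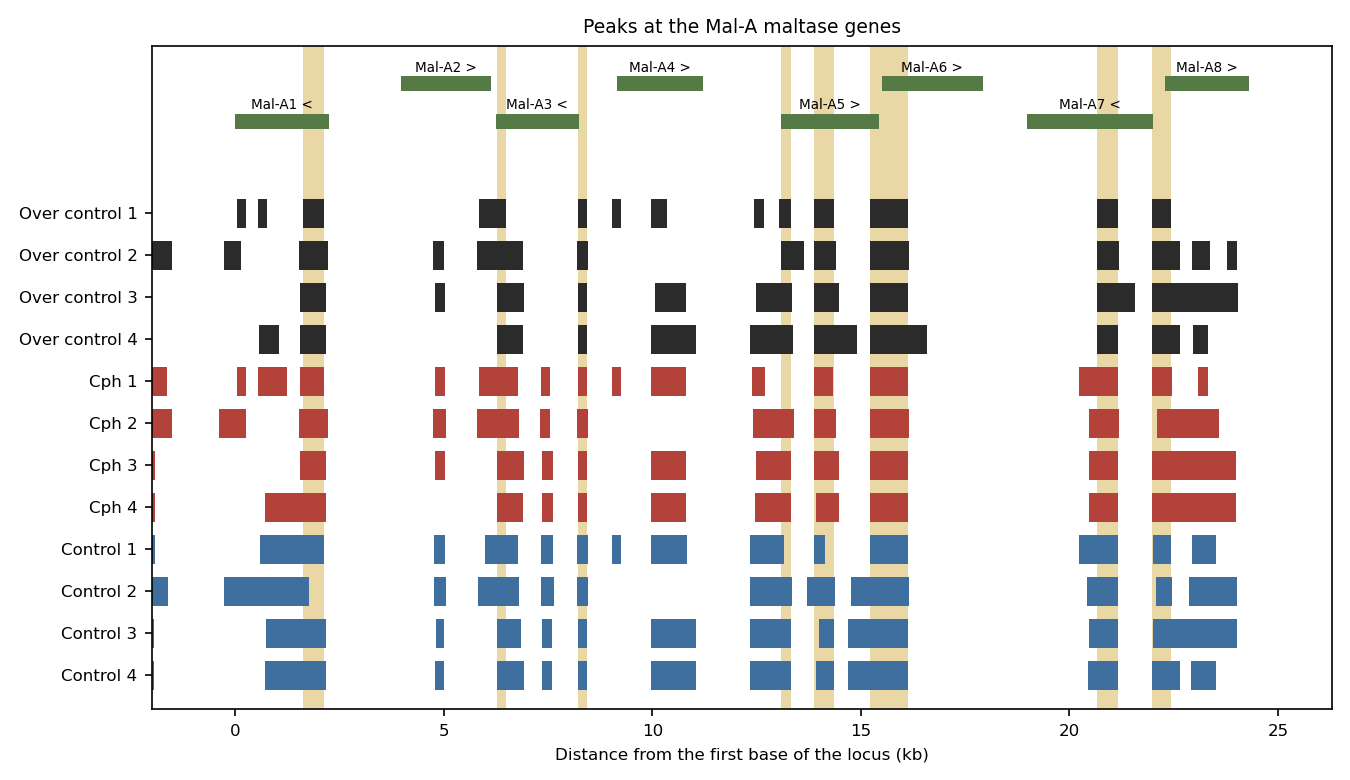
Peaks along the maltase locus by distance from its first base in kb (horizontal axis), with genes as green bars (arrowheads give the direction of transcription), Cph-over-control peaks in black, peaks of the Cph libraries in red and of the control libraries in blue. Pale bands are the 8 shared regions, and at each band the control lists hold peaks as well.

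The 2 amylase genes were widely covered in both genotypes and had few Cph-over-control peaks. *Amy-p* and *Amy-d* are the proximal and distal copies of the alpha-amylase gene, at chr2R:17118636-17126369. *Amy-p* had 60.3%, 39.8%, 89.2% and 67.4% of its window in peaks of Cph replicates 1 to 4, and 60.4%, 60.6%, 88.8% and 79.1% in the control replicates. *Amy-d* had 38.9%, 33.1%, 59.9% and 60.1% in the Cph replicates, and 48.7%, 50%, 66.3% and 66.7% in the control replicates. Replicates 3 and 4 were higher than replicates 1 and 2 at both genes in both genotypes. *Amy-d* was lower in Cph in each pair and had no Cph-over-control peak, and *Amy-p* had one in replicates 2 and 4 only, with a fold enrichment of 1.34 and 1.45. Over the whole locus the share was 37.5%, 26.8%, 52.4% and 45.9% in the Cph replicates and 41.7%, 42.2%, 55.8% and 52.5% in the control replicates, against 24.6% in the flanks.

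The trypsin locus, at chr2R:11335840-11357537, was divided by a stretch without peaks. In it, 20.4%, 16.8%, 22.1% and 21.1% of the bases lay in peaks of Cph replicates 1 to 4 and 18.6%, 21.4%, 21.9% and 23.3% in peaks of the control replicates, against 15.0% in the flanks. A Cph-over-control peak in all 4 replicates was present at 6 of 11 trypsin genes: *kappaTry*, *etaTry*, *thetaTry*, *alphaTry*, *epsilonTry* and *betaTry*. Cph-over-control peaks covered 11.2%, 13.7%, 20.5% and 24.5% of the trypsin windows in replicates 1 to 4. Replicates 1 and 2 thus lay below replicates 3 and 4.

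Both shared regions of the trypsin locus served several genes at once. One of 389 bp at chr2R:11345079-11345467 covers the start of *alphaTry*, the coding end of *epsilonTry* and sequence upstream of *betaTry*, with a fold enrichment of 2.86, 3.17, 4.17 and 3.35 in replicates 1 to 4. The other, of 372 bp at chr2R:11342166-11342537, lies in the coding exon of *thetaTry* and upstream of *etaTry*, with 2.59, 2.96, 2.35 and 3.46. The order of replicates differed between both regions. The share in peaks at *epsilonTry* was 48.8%, 41.6%, 77.1% and 60.6% in the Cph replicates and 44.3%, 57.8%, 62.5% and 66.2% in the control replicates. At *betaTry* it was 43.0%, 32.5%, 67.0% and 49.98% in the Cph replicates and 39.9%, 59.5%, 54.1% and 65.3% in the control replicates. At *alphaTry* it was 33.4%, 38.9%, 57.8% and 57.8% in the Cph replicates and 27.2%, 35.8%, 60.3% and 46.8% in the control replicates. The groups overlapped at all 3 genes.

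Presence of a Cph-over-control peak in every replicate did not mean a wide or a strong one. At *kappaTry*, 82.1%, 36.6%, 42.0% and 35.8% of the window lay in peaks of Cph replicates 1 to 4, and 83.0%, 83.3%, 67.2% and 68.1% in peaks of the control replicates. The Cph library was the lower one in each pair, while Cph replicate 1 alone lay inside the control range. The Cph-over-control peaks of *kappaTry* had a fold enrichment of only 1.51, 1.18, 1.30 and 1.49, and held 1.76% of the window in replicate 4.

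Peaks were absent from *gammaTry* and *deltaTry* in all lists, but few reads could have been placed there. Reads were kept only where they aligned to a single place, and the sequence of these trypsin genes recurs elsewhere. Of the 61-base words in their windows, 8.69% at *gammaTry* and 10.7% at *deltaTry* occur once in the genome. Absence of peaks from these windows thus cannot be told apart from sequence in which reads are not placed. The peak-free stretch around them spanned 9.63 kb, and unique words were not counted in the rest of it. Of the 43 genes, these 2 alone had under 50% of unique words, as did 338 of all protein-coding genes.

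**Figure D3:**
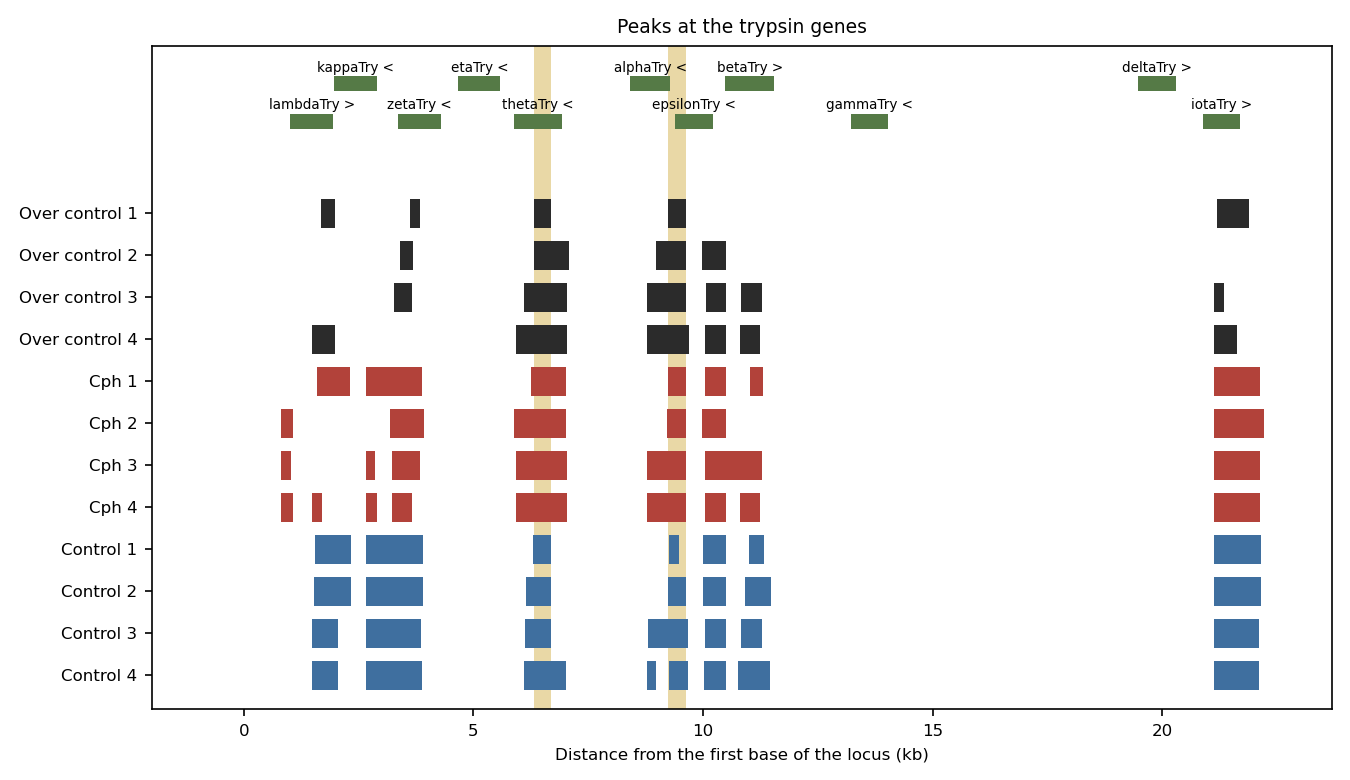
Peaks along the trypsin locus by distance from its first base in kb (horizontal axis), with the same colours as in the maltase map. The 2 pale bands are the shared regions at *thetaTry* and at *alphaTry* and *epsilonTry*, and no list has a peak at *gammaTry* or *deltaTry*.

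The 16 Jonah genes were spread over 7 loci and differed in the same way. These secreted serine proteases resemble trypsin and chymotrypsin in fold. A peak in all 8 lists was found for 12 of them, and a Cph-over-control peak in all 4 replicates for *Jon65Aiv*, *Jon65Aiii*, *Jon65Aii*, *Jon99Ciii*, *Jon99Cii*, *Jon99Fii* and *Jon99Fi*. Over the Jonah windows, 30.6%, 24.7%, 31.0% and 29.1% of the bases lay in peaks of Cph replicates 1 to 4 and 33.1%, 33.4%, 33.3% and 32.2% in peaks of the control replicates. Every control library was thus higher than every Cph library over the Jonah windows, a description for which no test was made. Cph-over-control peaks covered 20.2%, 19.8%, 21.9% and 19.0% of these bases, the steadiest values among the 5 families.

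The Jon65A locus, at chr3L:6038155-6055443, showed both directions of difference. Of its bases, 25.3%, 10.8%, 22.1% and 24.8% lay in peaks of the Cph replicates and 24.2%, 25.7%, 23.0% and 25.3% in peaks of the control replicates, against 19.2% in the flanks. *Jon65Aiii* was the one enzyme gene whose shares did not overlap between genotypes. Its share was 43.0%, 43.0%, 41.3% and 43.0% in Cph replicates 1 to 4 and 35.99%, 36.2%, 34.3% and 23.4% in the control replicates, a difference of 10.1 points. The adjacent *Jon65Aii* went the other way, with 76.6%, 46.7%, 44.6% and 44.8% in the Cph replicates and 77.2%, 77.4%, 63.6% and 71.8% in the control replicates. Here Cph replicate 1 lay inside the control range and the other Cph replicates below it. At *Jon65Aiv*, the share was 55.3%, 26.1%, 74.8% and 96.0% in the Cph replicates and 52.8%, 75.0%, 72.7% and 72.9% in the control replicates, so that Cph replicates 2 and 4 lay on either side of the control range.

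*Jon65Aiv* combined a shared region at its start with a higher peak in Cph, described further on. The region, of 269 bp at chr3L:6038931-6039199, had a fold enrichment of 1.90, 3.08, 1.91 and 2.11 over the control. The stretch printed here is the part of it upstream of the annotated start (chr3L:6038933-6039154, plus strand, release 6, 222 bases), shown because every 61-base word in it occurs once in the genome and because it holds the only GATC of the region. Capitals mark that GATC.
Jon65Aiv upstream: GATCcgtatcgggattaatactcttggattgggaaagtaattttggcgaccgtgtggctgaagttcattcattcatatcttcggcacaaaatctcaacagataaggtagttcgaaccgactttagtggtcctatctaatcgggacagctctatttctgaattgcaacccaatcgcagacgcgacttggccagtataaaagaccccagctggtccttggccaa
The sequence also holds 1 TATAAA, the core of the TATA box that positions transcription, whose first base lies 30 bases before the start. An AGATAA, the GATA-factor type of motif, begins 124 bases before it.

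The Jon99C and Jon99F loci carried 4 of the 16 shared regions. At Jon99F, chr3R:30487016-30489895, 57.2%, 50.8%, 46.7% and 47.0% of the bases lay in peaks of the Cph replicates and 58.4%, 58.9%, 45.5% and 45.8% in peaks of the control replicates, against 16.6% in the flanks. At Jon99C, chr3R:29921216-29927189, the values were 27.9%, 20.8%, 16.3% and 19.3% in the Cph replicates and 21.8%, 19.2%, 18.2% and 24.4% in the control replicates, against 10.2% in the flanks. Both loci stood above their flanks in every library, and the groups overlapped at both. Within Jon99F, the share at *Jon99Fi* was 53.3%, 40.4%, 38.3% and 38.5% in the Cph replicates and 54.0%, 54.2%, 37.6% and 37.8% in the control replicates.

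The shared regions of *Jon99Ciii* (chr3R:29922403-29922779) and *Jon99Cii* (chr3R:29924050-29924426) are copies of each other in opposite directions. They are 377 bp long and identical at 376 bases, both lie in a coding exon, and 19.2% and 5.36% of their 61-base words occur once in the genome. Fold enrichment was 2.31, 2.14, 2.74 and 2.27 at *Jon99Ciii* and 1.63, 1.97, 2.49 and 1.97 at *Jon99Cii* in replicates 1 to 4. In the shared region of *Jon99Fi*, 39.4% of these words occur once. As reads were kept only where they aligned to a single place, few could be placed in much of these regions. The part of read placement in the peaks called there was not tested. The 4 genes *Jon99Ciii*, *Jon99Cii*, *Jon99Fii* and *Jon99Fi* each have GATC sites 180 and then 168 bases apart, while *Jon99Ci* does not. The first of these GATC fragments is printed for each gene in the direction of transcription, to show how alike the coding sequences are under the peaks, with the GATC sites in capitals. The fragments lie at chr3R:29922439-29922622 (plus strand), chr3R:29924207-29924390 (minus strand), chr3R:30487517-30487700 (minus strand) and chr3R:30489191-30489374 (plus strand).
Jon99Ciii: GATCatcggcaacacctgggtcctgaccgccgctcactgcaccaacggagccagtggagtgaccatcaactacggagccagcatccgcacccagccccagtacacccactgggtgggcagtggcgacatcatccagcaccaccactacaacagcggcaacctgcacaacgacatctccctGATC
Jon99Cii: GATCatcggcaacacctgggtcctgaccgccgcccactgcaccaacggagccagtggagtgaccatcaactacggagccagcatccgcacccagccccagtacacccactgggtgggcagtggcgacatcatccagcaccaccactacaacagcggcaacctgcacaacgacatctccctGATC
Jon99Fii: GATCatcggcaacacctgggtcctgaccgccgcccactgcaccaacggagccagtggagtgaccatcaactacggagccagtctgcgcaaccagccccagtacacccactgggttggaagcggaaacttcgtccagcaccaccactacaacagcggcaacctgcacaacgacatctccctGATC
Jon99Fi: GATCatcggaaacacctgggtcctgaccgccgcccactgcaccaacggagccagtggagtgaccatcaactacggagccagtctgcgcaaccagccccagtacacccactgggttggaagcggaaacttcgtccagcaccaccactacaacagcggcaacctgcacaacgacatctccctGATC
The fragment of *Jon99Cii* differs from that of *Jon99Ciii* at 1 of 184 bases, *Jon99Fii* at 12 and *Jon99Fi* at 13. Of the 124 words of 61 bases in each, 34 in *Jon99Ciii*, 13 in *Jon99Cii*, 0 in *Jon99Fii* and 10 in *Jon99Fi* occur once in the genome. The fragments of *Jon99Ciii* and *Jon99Cii* lie wholly inside their shared regions, that of *Jon99Fi* by 173 bases and that of *Jon99Fii* not at all.

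*Jon99Ci*, the neighbour outside this group of copies, had the strongest peak of any enzyme gene by mean fold enrichment without a control. In Cph replicate 1 alone, the peak of *Mal-A3* and *Mal-A4* was stronger, at 7.61. The peak of *Jon99Ci* also reached into the window of *Jon99Cii* in part of the libraries. Its fold enrichment was 7.06, 11.6, 17.5 and 15.6 in Cph replicates 1 to 4 and 8.91, 9.47, 11.3 and 9.84 in the control replicates. Against the control, the values were 1.96, 2.55 and 2.49 in replicates 1 to 3, with no peak in replicate 4. A high peak without a control therefore did not carry over into a Cph-over-control peak in every replicate.

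The remaining Jonah loci had no shared region. At Jon25B, chr2L:4949941-4956144, 14.1%, 16.1%, 17.9% and 18.3% of the bases lay in peaks of the Cph replicates and 15.4%, 15.3%, 18.0% and 18.0% in peaks of the control replicates. Its flanks averaged 18.4%, so the locus did not stand above its surroundings. Within it, *Jon25Biii* had no peak in any list although all of its 61-base words are unique and its window holds 7 GATC sites, and the peak-free stretch around it spanned 2.43 kb. At Jon66C, chr3L:8390540-8394649, the share was 10.5%, 13.6%, 26.6% and 10.5% in the Cph replicates and 21.8%, 22.5%, 26.2% and 26.3% in the control replicates, against 14.1% in the flanks. At *Jon74E*, chr3L:17548077-17550127, it was 42.9%, 30.1%, 36.1% and 23.4% in the Cph replicates and 60.99%, 34.7%, 57.9% and 21.3% in the control replicates, against 21.5% in the flanks. The Cph library was thus the lower one in 3 of 4 pairs at Jon66C and *Jon74E*. *Jon44E*, chr2R:8690448-8692844, had no peak in Cph replicate 1, 24.7%, 23.0% and 23.2% in Cph replicates 2 to 4, and 24.3%, 23.9%, 22.4% and 27.5% in the control replicates, against 15.8% in the flanks.

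The alpha-mannosidase genes had the fewest peaks of the 5 families. At the locus of *LManIII* to *LManVI*, chr2L:8765273-8782252, 1.88%, 2.08%, 5.24% and 2.83% of the bases lay in peaks of the Cph replicates and 1.95%, 1.98%, 3.24% and 3.26% in peaks of the control replicates, against 2.18% in the flanks. *LManIII*, *LManIV* and *LManV* had no peak in any list, in a peak-free stretch of 21.3 kb that extends beyond these genes. Their windows hold 23, 16 and 26 GATC sites, and nearly all of their 61-base words occur once in the genome. Reads could thus be placed in these windows. At *LManI* and *LManII*, chr2L:10452677-10462472, the share was 15.2%, 18.4%, 17.7% and 15.5% in the Cph replicates and 17.9%, 20.6%, 15.5% and 12.9% in the control replicates, against 15.6% in the flanks. *LManI* was the single mannosidase gene with a Cph-over-control peak in all 4 replicates, with a fold enrichment of 2.17, 2.33, 2.24 and 2.03.

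**Figure D4:**
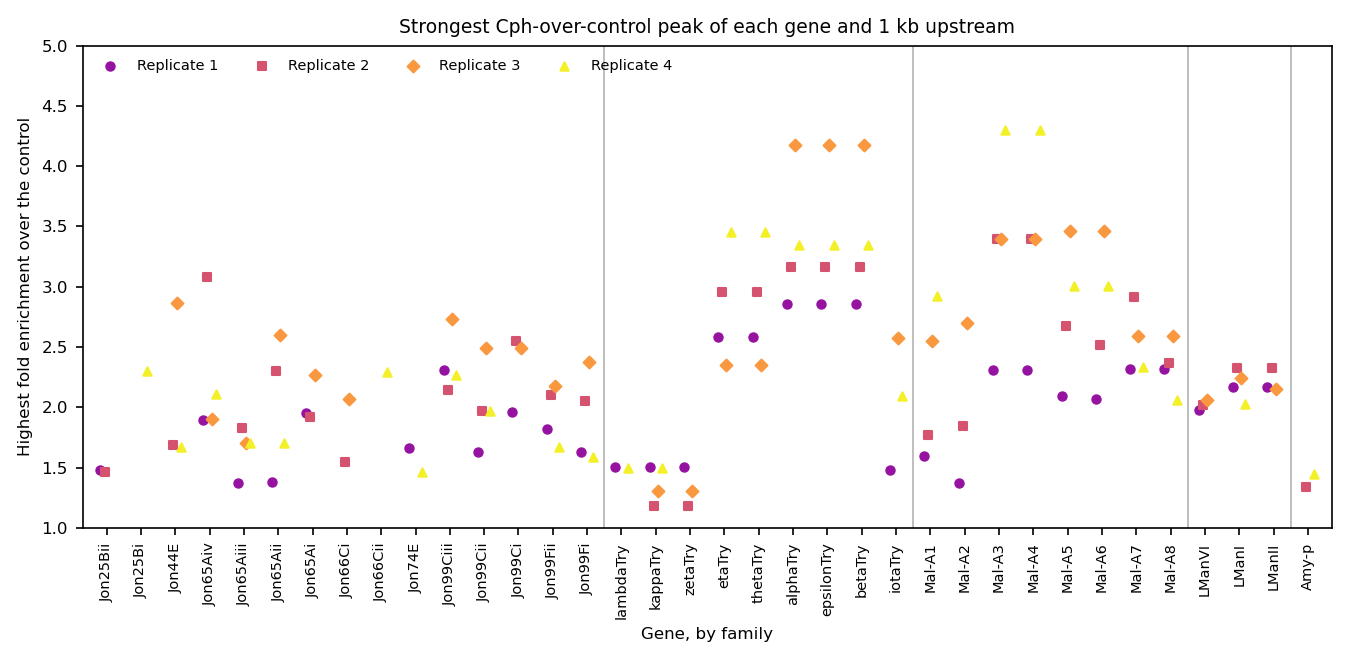
Highest fold enrichment of a Cph-over-control peak (vertical axis, from 1) in the window of each enzyme gene with such a peak in at least 1 replicate (horizontal axis, by family), with a marker for each replicate in which the gene had a peak. The highest values belong to *Mal-A3* and *Mal-A4* (4.30 in replicate 4) and to *alphaTry*, *epsilonTry* and *betaTry* (4.17 in replicate 3), which share peaks.

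Whether the share of a window in peaks differed between genotypes was tested for every protein-coding gene with a peak in at least 1 list. The exact permutation test was two-sided over the 70 arrangements of the 8 libraries, so its smallest p is 0.0286, reached only where the groups do not overlap. *Jon65Aiii* reached it, with a Benjamini-Hochberg adjusted p of 0.361 over 12151 genes. This was the lowest adjusted value, shared by every gene at the smallest p. Of all genes tested, 1.83% lay wholly higher in Cph and 6.10% wholly lower, and of the enzyme genes 1 lay wholly higher and 0 wholly lower. In total 963 genes had an unadjusted p under 0.05 and 0 an adjusted p under 0.05. With that smallest p over so many genes, an adjusted p under 0.05 was hardly possible. The count of 0 therefore does not tell whether genotypes differ. Over the 37 enzyme genes with a peak, the mean share was higher in Cph at 12 and lower at 25. The median difference was -1.62 points over these genes and -1.26 points over all genes with a peak. Compared by pairs, all 4 differences were above 0 at *Jon25Bii*, *etaTry*, *thetaTry*, *Jon65Aiii* and *Jon99Ciii*, and below 0 at *Mal-A5*, *Mal-A6*, *lambdaTry*, *kappaTry*, *Amy-d* and *Jon65Aii*. Among all genes tested, 5.99% had all differences above 0 and 16.5% all below 0.

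The height of the peaks went the other way from their extent. As a measure of height, the highest pileup of a peak in the window (for these broad peaks, the mean number of reads stacked over the called peak) was expressed per 1000000 reads of the library, and genes with a peak in all 8 lists were tested on the log2 scale with limma, with the replicate number as a block. Of 9490 genes, 5.09% were called higher in Cph and 1.00% lower at an adjusted p under 0.05, and of the 32 enzyme genes tested 8 were called higher and 0 lower. The 8 genes share 6 distinct peaks, and 6 of the 8 are maltases. The mean pileup was higher in Cph at 25 of the 32 genes, and the median log2 ratio of Cph over control was 0.41 over the 32 enzyme genes and 0.16 over all genes tested. With each library centred on its median, 538 genes were called higher and 417 lower, and of the enzyme genes the same 8 were higher and *LManVI* was lower.

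The highest peak of the maltase array was that of *Mal-A7*, in its coding exon. Its pileup was 30.0, 77.8, 55.6 and 49.9 per 1000000 reads in Cph replicates 1 to 4 and 23.2, 29.8, 25.5 and 26.4 in the control replicates, a log2 ratio of 0.95 (SE 0.27, limma adjusted p = 0.0473). The groups did not overlap, though Cph replicate 1 lay just above the highest control. At the peak between *Mal-A3* and *Mal-A4* the pileup was 19.8, 32.5, 29.8 and 24.5 in the Cph replicates and 14.9, 15.0, 15.3 and 9.97 in the control replicates, a log2 ratio of 0.95 (SE 0.23, limma adjusted p = 0.0293). Here all Cph libraries lay above all control libraries, and peaks were 209 to 287 bp long in Cph and 209 to 253 bp in the control.

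The largest ratio was that of the peak shared by *Mal-A5* and *Mal-A6*. Its pileup was 15.4, 40.6, 31.1 and 30.8 in Cph replicates 1 to 4 and 12.2, 17.6, 10.3 and 10.7 in the control replicates, a log2 ratio of 1.16 (SE 0.25, limma adjusted p = 0.0170). Cph replicate 1 fell below control replicate 2, and the Cph library was the higher one in each pair. At *Mal-A1* the pileup was 3.96, 10.4, 17.4 and 10.8 in the Cph replicates and 3.84, 5.92, 6.40 and 4.90 in the control replicates, a log2 ratio of 0.86 (SE 0.22, limma adjusted p = 0.0356). Cph replicate 1 barely differed from its control there and lay inside the control range.

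Of the Jonah genes, *Jon65Aiv* and *Jon99Ciii* were called higher. The pileup at *Jon65Aiv* was 8.91, 27.8, 18.2 and 14.0 in Cph replicates 1 to 4 and 6.75, 7.76, 7.16 and 7.96 in the control replicates, a log2 ratio of 1.10 (SE 0.24, limma adjusted p = 0.0183). At *Jon99Ciii* it was 6.44, 7.81, 10.8 and 8.96 in the Cph replicates and 4.59, 4.37, 5.24 and 6.08 in the control replicates, a log2 ratio of 0.73 (SE 0.19, limma adjusted p = 0.0336). The groups did not overlap at either gene. All 6 peaks were higher in Cph in each of the 4 pairs. Their mean log2 ratios lay between 0.43 (*Mal-A1*) and 1.12 (*Jon65Aiv*) within replicates 1 and 2, and between 0.80 (*Jon99Ciii*) and 1.56 (*Mal-A5* and *Mal-A6*) within batch 2.

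In the same fit none of the trypsin peaks was called. The peak of *etaTry* and *thetaTry* had a pileup of 14.8, 25.3, 18.9 and 24.9 in Cph replicates 1 to 4 and 14.1, 15.7, 13.4 and 9.12 in the control replicates (log2 ratio 0.67, limma adjusted p = 0.109). The peak of *alphaTry*, *epsilonTry* and *betaTry* had 8.23, 20.2, 12.5 and 12.7 in the Cph replicates and 8.61, 12.3, 7.46 and 6.86 in the control replicates (log2 ratio 0.57, limma adjusted p = 0.123). At both the groups overlapped. Without replicate 1 all 5 of these genes were called higher (limma adjusted p = 0.0363 to 0.0456). *Amy-p* and *Amy-d* had log2 ratios of -0.30 and -0.25, neither of which passed.

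**Figure D5:**
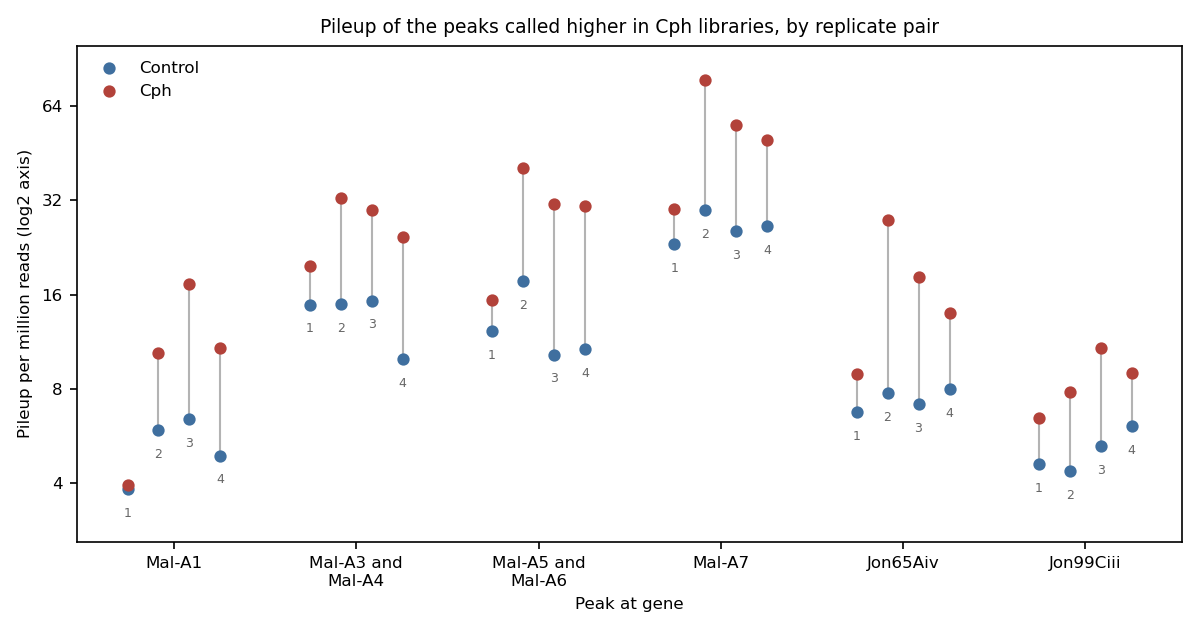
Highest pileup of a peak per 1000000 reads (vertical axis, log2 scale) in the Cph library (red) and the control library (blue) of each replicate pair, numbered 1 to 4, for the 6 peaks of the 8 genes called higher in Cph. In every pair the Cph library is above its control, least so in replicate 1.

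The calls of height depended on the pairing, on single replicates and on how height was measured. Without the replicate block 0 of the 8 genes was called, at adjusted p of 0.0976 to 0.252, and 12 enzyme genes had an unadjusted p under 0.05. With log2 fold enrichment in place of pileup 0 was called, at adjusted p of 0.111 to 0.443, and 9 had an unadjusted p under 0.05. Leaving out replicate 2 left 0 calls, at adjusted p of 0.102 to 0.172 for the 8 genes, with 12 at an unadjusted p under 0.05, while leaving out replicates 1, 3 or 4 gave 14, 4 and 5 calls, all higher in Cph. Of all genes tested, 12.3%, 3.53% and 5.84% were called in either direction with replicate 1, 3 or 4 left out. That share was 6.09% with all replicates and the block. It fell to 0.495% without the block, 0.116% with fold enrichment and 0.295% without replicate 2, so calls were lost there over all genes. Genes at an unadjusted p under 0.05 were not counted over all genes.

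Pileup is a mean over the called peak, and the length of the called peak also differed between libraries. At *Mal-A1* the peaks were 580, 697, 636 and 1476 bp long in Cph replicates 1 to 4 and 1533, 2041, 1440 and 1448 bp in the control replicates. At *Mal-A5* and *Mal-A6* they were 915 to 948 bp in Cph and 920 to 1430 bp in the control, and at *Jon65Aiv* they were 1826, 269, 835 and 2632 bp in Cph and 1775 to 1976 bp in the control. The peaks of *Mal-A7* were 685 to 922 bp in Cph and 688 to 944 bp in the control, the control being longer in each pair. At *Jon99Ciii* the Cph peak was the longer one in each pair, with 377 to 416 bp against 297 to 399 bp. With pileup times length summed over the window, a measure added after the data had been seen, the log2 ratios were 0.21 at *Mal-A1*, 0.17 at *Mal-A5* and 0.42 at *Jon65Aiv*, none of them called. By that measure *Mal-A6* (0.71, limma adjusted p = 0.0239) and *Mal-A7* (0.99, limma adjusted p = 0.00898) were called higher, so that 2 of the 8 genes kept the call. *Mal-A3* (0.60, limma adjusted p = 0.0786), *Mal-A4* (0.59, limma adjusted p = 0.112) and *Jon99Ciii* (0.87, limma adjusted p = 0.0569) were not called. Genes called by it that the highest pileup did not call were *etaTry* (limma adjusted p = 0.0235), *thetaTry* (1.48, limma adjusted p = 0.00468), *alphaTry* (0.98, limma adjusted p = 0.0240) and *Mal-A8* (0.71, limma adjusted p = 0.0433), all higher, and *kappaTry* (-0.72, limma adjusted p = 0.0263), lower. Over all genes tested, 9.92% were called by this measure.

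Within a window, peaks lay more in the gene body than upstream. On average over the 8 lists, 37.1% of the body and 24.2% of the 1 kb upstream lay in peaks at the enzyme genes, against 21.8% and 15.9% over all protein-coding genes. The body had the larger share at 22 genes and the upstream sequence at 15, and 16 genes had no upstream base in a peak of any list. The annotated start itself lay in a peak of all 8 lists at 7 genes (16.3%, against 8.25% of all): *Mal-A3*, *Mal-A6*, *Mal-A8*, *alphaTry*, *epsilonTry*, *betaTry* and *Jon65Aiv*. It lay in a peak of no list at 20 genes (46.5%, against 74.3% of all). GATC sites were denser at the enzyme genes, with a median of 4.62 per kb against 3.56 per kb over all genes. Their shorter windows held a median of 10 sites against 13. The part of this in the shares was not tested.

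Most ends of the shared regions at enzyme genes lay at 1 fixed distance from a GATC site. At 23 of the 32 ends of the 16 regions at enzyme genes (71.9%), exactly 7 bases separated the end from the nearest GATC outside, against 45.7% of the 14578 ends of all shared regions. The assay cuts and amplifies DNA between GATC sites, so the resolution of these regions is that of the GATC fragments.

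Short motifs were counted on both strands as a description of the sequences. In the 250 bases before to 50 bases after the annotated start, TATAAA was present at 33 of 43 enzyme genes (76.7%, against 45.8% of all protein-coding genes) and AGATAA at 21 (48.8%, against 18.6%). TGACCA, a motif known for human BCL11A, a homologue of Cph, was present at 15 (34.9%, against 15.1%). In 300 bases around the centre of the shared regions, TGACCA was found at 7 of 16 (43.8%, against 19.3% of all shared regions), AGATAA at 3 (18.8%, against 16.1%) and GATC at 14 (87.5%, against 84.3%). Copies within an array repeat sequence and their promoters can overlap, and no test was made of these shares.

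Of other digestive enzyme genes outside these name families, 18 were found in the annotation, among them the lysozymes, *tobi* and *Treh*. A peak in all 8 lists was present at 11 of the 18, no peak at 3, a Cph-over-control peak in all 4 replicates at 6 and none in any replicate at 7. The shares of all protein-coding genes were 67.9%, 13.0%, 41.8% and 20.4% in that order. The 6 were *tobi*, which encodes an alpha-glucosidase, *LysD*, *LysE* and *LysX*, which encode lysozymes, the serine protease gene *yip7*, and *Treh*, which encodes trehalase.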

How the data were processed

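NanoDam DNA of 4 Cph and 4 control libraries was sequenced as single-end 86 bp reads. Per the labels and the study's methods, the authors trimmed reads (Trim Galore 0.6.10), aligned them to BDGP6 (Bowtie2 2.5.4, SAMtools 1.20), retained reads with 1 place in the genome and called broad peaks per library, without pooling replicates. Per the file headers the caller was MACS2 2.1.4, with a q of 0.05 and a broad cutoff of 0.1 and all duplicates kept, while the labels list 2.2.9.1. The deposited lists give each peak's fold enrichment over the background (a ratio), −log10 of the p-value and q-value, a score derived from q, and the pileup, a signal not scaled for depth. The score was not used.

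Windows came from Ensembl release 115, whose chromosome lengths match the peaks. The share of a window in peaks was compared by exact permutation (Python 3.11.15, NumPy 2.4.6), and log2 pileup per 1000000 reads with limma 3.58.1 in R 4.3.3, both over all protein-coding genes with Benjamini-Hochberg adjustment. Unique sequence was measured with 61-base words. The lists hold no reads per position, so counting intervals could not be had. Groups follow the sample titles. Same-numbered libraries were taken as pairs, since the authors called peaks by pair. Deviations from group means correlated by 0.185 to 0.374 between same numbers (-0.291 to 0.302 between others). Within replicates 1 and 2 they were 0.374 and 0.185 between same numbers and 0.0596 and 0.0827 between others. Within batch 2 they were 0.213 and 0.223 between same numbers and 0.239 and 0.302 between others. The correlations in batch 2 thus do not set the pair apart from the batch.

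Genes with values per library were those past each criterion, at most 10 by highest mean share. Members, lists and alternatives were chosen with earlier results of these data known. Alternatives covered the window, overlap, peak thresholds, single replicates, replicate sets, the block and the measure of height. The steps were tested on simulated data. Sequences are from the RefSeq genome of release 6, and none from 2R are shown.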

Additional observations from a re-analysis of the deposited data

Results flagged for a closer look

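In groups of 4 libraries, a value was singled out where the gap between the highest or lowest library and its nearest neighbour, divided by the whole range, passed Dixon's critical value. Of 100 groups examined, 13 passed, and chance alone gives about 1 in 20 groups. None of these patterns was weighed further.

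At the *Jon44E* locus the ratio was 0.934 in Cph, where replicate 1 had no peak and the highest library 24.7% of the locus in peaks. In the share of *Mal-A4*, control replicate 2 stood low (0.956, from 8.24% to 43.6%). Cph replicate 1 stood low at *Mal-A5* (0.904, from 29.0% to 51.2%), and control replicate 1 stood low at *Mal-A6* (0.914, from 26.8% to 41.6%) and, with control values from 52.8% to 75.0%, at *Jon65Aiv* (0.898). Cph replicate 1 stood high at *kappaTry* (0.867, from 35.8% to 82.1%), *Jon65Aii* (0.936, from 44.6% to 76.6%) and *Jon99Fi* (0.865, from 38.3% to 53.3%).

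The other 5 groups were narrow or concerned a single control library. Cph replicate 2 stood high at *Mal-A6* (0.848, from 26.6% to 27.6%) and *Jon99Ciii* (0.846, from 16.8% to 18.6%). At *Jon65Aiii*, Cph replicate 3 stood low (1.0, from 41.3% to 43.0%), as the other Cph libraries were equal, and control replicate 4 stood low (0.851, from 23.4% to 36.2%). Control replicate 4 was also low in the pileup at *Mal-A3* (0.916, from 9.97 to 15.3 per 1000000 reads). By library, Cph replicate 1 accounted for 5 of the 13 groups and control replicate 4 for 2.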

How the results depend on the processing

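The counts of genes with peaks in all 8 lists or in none moved by at most 1.5 times under every window, overlap and threshold tried and with each replicate left out (those with none from 6 to 4 with 3 kb upstream). The count with a Cph-over-control peak in all 4 replicates fell from 21 to 13 when only peaks of at least 2-fold enrichment were kept. The share of all genes fell from 41.8% to 12.9%. At that threshold the count with none in any replicate rose from 7 to 14, and the share of all genes rose from 20.4% to 42.3%. The genotype difference in the share of the 43 windows, -2.83 points, stayed below 0 throughout, from -1.68 without replicate 2 to -3.93 within replicates 1 and 2 (-1.72 within replicates 3 and 4).

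The count of genes whose shares do not overlap was 1 (*Jon65Aiii*), against 7.93% of all genes with a peak. It was 2 with the gene body alone (7.14% of all), 2 with 3 kb upstream (8.39%) and 2 with peaks of at least 2-fold enrichment (6.04%). It was 2 to 7 with a replicate left out (7 without replicate 1; 12.4% to 22.7% of all genes), 13 within replicates 1 and 2 (34.1% of all) and 20 within replicates 3 and 4 (49.6% of all), settings in which fewer libraries make separation easier. *Jon65Aiii* was among them in all of these. In limma on the shares, 0 enzyme genes were called with the block and 0 without it, against 0.469% and 1.45% of all genes tested. Of the enzyme genes, 9 and 6 had an unadjusted p under 0.05, which was not counted over all genes.

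The replicate block left the mean within-pair difference at -2.83 points (SD 2.30, 4 pairs), and 11 genes had all 4 differences of one sign (22.5% of all genes tested, smallest possible p of 0.125). The count of genes called in pileup, 8 with the block, was 0 without it, 0 with fold enrichment, and 0 to 14 with a replicate left out (0 without replicate 2). Of all genes tested, 6.09% were called with the block, 0.495% without it and 0.116% with fold enrichment. With a replicate left out it was 0.295% (without replicate 2) to 12.3%. The cause was not tested. Of 64 ratios of single genes under alternatives, 26 were called, 38 were not and 0 reversed. With pileup summed over the window, chosen after seeing the data, 7 genes were called (9.92% of all genes tested), 6 higher and *kappaTry* lower. Counting only bases of gene windows moved the share of 5 loci by more than the SD of their libraries, from 22.6% to 44.7% at Jon65A, from 44.4% to 60.7% at the amylases and by less at the others. Depth at a site is unknown, so absence of a peak means only that none was called.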
